A study of Mus musculus with 3 samples.

Results

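Med13, Med13l, Med12, Ccnc and Cdk19 encode parts of the Mediator kinase module. The 5 genes were selected by name from the deposited list of crosslink positions, all segment types included, and were chosen from earlier results of these data, in which Med13 stood among the genes with the most counts in the 3′ UTR. They held 875 of 462392 listed positions and were 5 of 12541 protein-coding genes with any listed position. The counts at 3′ UTR sites and their share near the AU-rich core in Med13 are therefore descriptions here, with no test.

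The study set out to map contacts of ZFP36L1 with RNA in thymocytes by individual-nucleotide crosslinking and immunoprecipitation (iCLIP). In iCLIP, ultraviolet light ties protein to RNA and the end of each cDNA marks the contact. Total naive thymocytes came from C57BL/6JBabr mice of 2 genotypes. DCKO cells gave 1 library. The labels do not spell out this name, which the study is known to use for double conditional knockout of Zfp36l1 and Zfp36l2. WT cells gave 2 libraries, from separate experiments. All cells received 300 mJ/cm2 of ultraviolet light and all lysates the same Brf1/2 antibody. By its name this antibody may also bind ZFP36L2, so counts are not assigned here to ZFP36L1 alone. The labels name no Cre driver, no number of animals and no age.

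The list held 1 count per position, with a summed count of 814493, and named no library. Nothing in it shows which counts are from DCKO or WT cells, so no value below has a replicate error and DCKO and WT were not compared. Any counts from DCKO cells in the list need not mark contact with ZFP36L1 or ZFP36L2. Of 10 thymocyte markers, 9 had a listed position and a 3′ UTR site, with a summed site count of 3432, whereas Ptcra was absent from the list. Among listed markers, 0 of 3 for B cells, 0 of 3 for myeloid cells and 0 of 1 for erythroid cells had a 3′ UTR site. One of 3 listed markers of thymic epithelium and 2 of 3 of stroma and endothelium had one, with summed site counts of 4 and 30, and their part in the results was not tested. A count depends on the amount of the transcript as well as on contact with the protein, and fewer cells carrying a transcript and less of it per cell cannot be told apart.

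Mediator is the complex that carries signals from DNA-bound transcription factors to RNA polymerase II. Its kinase module binds the rest of the complex reversibly. MED13, or its paralog MED13L, joins the module to core Mediator, and MED12 activates the kinase CDK8 or its paralog CDK19 together with cyclin C, the product of Ccnc. ZFP36L1 and ZFP36L2 bind AU-rich elements in 3′ UTRs and recruit the machinery that removes the poly(A) tail and degrades the mRNA. The core of such an element is TATTTA in DNA letters, and TTATTTATT is its extended nonamer.

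Positions whose FDR, as the authors computed it, was under 0.05 are called sites, and sites no more than 15 nt apart were joined into a cluster. The 3′ UTR sites of the members formed 11 clusters, 4 in Med13, 4 in Med13l, 2 in Cdk19 and 1 in Ccnc. The sequence at the strongest position is shown for 9 of them because it shows which runs hold a whole copy of the AU-rich core. Each run is 30 nt of the transcript strand (GRCm38), and capitals mark whole copies of TATTTA.
Med13 cluster 1, chr11:86270549-86270578, minus strand: aatgcctgcatctctTATTTAttgtaagtt
Med13 cluster 2, chr11:86269795-86269824, minus strand: ctttttatttttaaattaaagattgggaat
Med13 cluster 3, chr11:86269565-86269594, minus strand: ccctttgactttttTATTTAttgaattttc
Med13 cluster 4, chr11:86267500-86267529, minus strand: actcatactcactctttttctctctctccc
Med13l cluster 1, chr5:118764744-118764773, plus strand: tctggtgtctttTATTTAagttttttaagt
Med13l cluster 4, chr5:118765394-118765423, plus strand: cttttacacacttttttagaggaataaatt
Cdk19 cluster 1, chr10:40480103-40480132, plus strand: gctgtagcaatcattataatttatcttttc
Cdk19 cluster 2, chr10:40480308-40480337, plus strand: actattatgttttTATTTAtctctttcagg
Ccnc cluster, chr4:21749674-21749703, plus strand: gtttcttttttcagattttttttttttttt

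Of these 9 runs, 4 hold TATTTA, namely clusters 1 and 3 of Med13, cluster 1 of Med13l and cluster 2 of Cdk19. The Ccnc run is dominated by stretches of T, and cluster 4 of Med13 is rich in C and T.

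Med13 had the most 3′ UTR site counts of the 5 genes. Its 3′ UTR had 55 sites that added up to 224 counts, which placed it at rank 9 of the protein-coding genes. The 3′ UTR site counts were 33 from 16 sites in Med13l (rank 275), 14 from 9 sites in Cdk19, 9 from 5 sites in Ccnc and 0 in Med12. A 3′ UTR site was thus found in 4 of the 5 members, against 17.7% of all protein-coding genes, and the median site count was 14 over the members and 0 over all genes. A site within 20 nt of TATTTA was found in Med13, Med13l and Cdk19, 3 of the 5, against 6.93% of all genes. These comparisons were not matched for 3′ UTR length. The members with a site have 3′ UTRs of 2355 to 4015 nt, and Med12 has 235 nt. The median was 1047 nt over 11689 3′ UTRs of genes with a listed position.

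**Figure D1:**
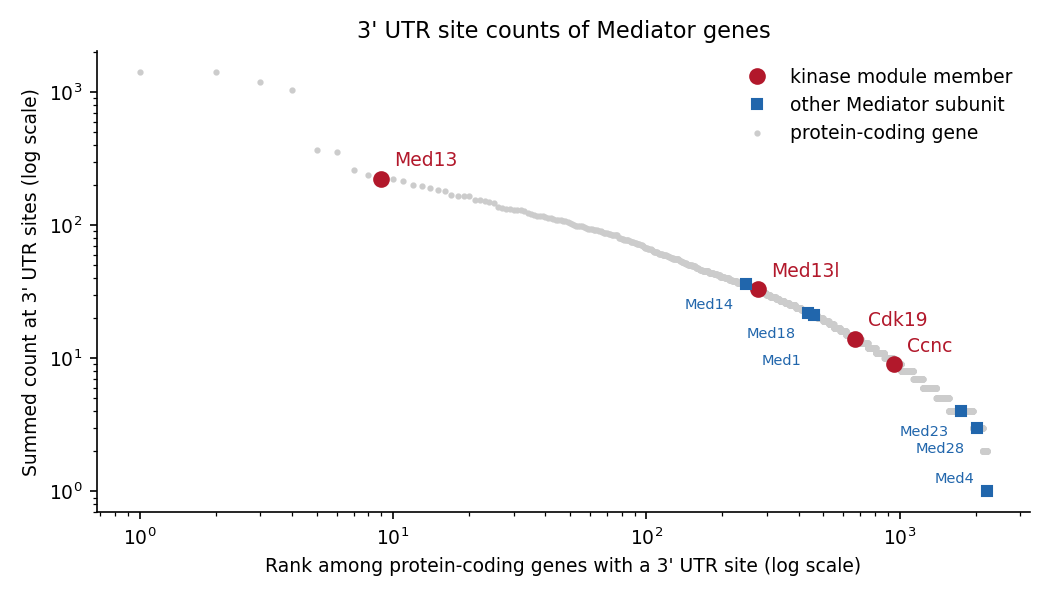
Summed count at 3′ UTR sites (log scale) against rank (log scale) for the 2222 protein-coding genes with a 3′ UTR site. Red circles are the kinase module members, blue squares the other Mediator subunits and grey points all genes. Med13 lies at rank 9 with 224 counts, and Med13l, Cdk19 and Ccnc follow with 33, 14 and 9.

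The members also differed in how their counts were spread over the gene. Over all listed positions, Med13 had 276 counts in the 3′ UTR, 56 in coding sequence, 389 in introns and 2 in the 5′ UTR. The 3′ UTR thus held 38.2% of Med13 counts, against 13.2% over all protein-coding genes. In Med13l the 3′ UTR had 57 of 521 counts (10.9%) and introns 447. Cdk19 had 27 counts in the 3′ UTR, 1 in coding sequence and 164 in introns. Ccnc had 12, 6 and 24, and Med12 had 0, 14 and 33.

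Per length of segment the order of the members in the 3′ UTR was Med13, Med13l, Cdk19, Ccnc and Med12. Counts at all listed positions per kb of 3′ UTR were 69.8, 21.9, 6.72, 5.10 and 0 in that order. In coding sequence Med13 was also highest, with 8.60 counts per kb, followed by Ccnc with 7.07, Med13l with 2.57, Med12 with 2.13 and Cdk19 with 0.665. Intron values were 4.86 in Med13 and between 1.23 and 2.29 in the other members. Med13 stood highest in each of these 3 segments. Of the 4 coding positions of Ccnc, 3 lie in GENCODE 3′ UTR and not in its coding sequence, so the Ccnc coding value rests on the authors' labels.

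**Figure D2:**
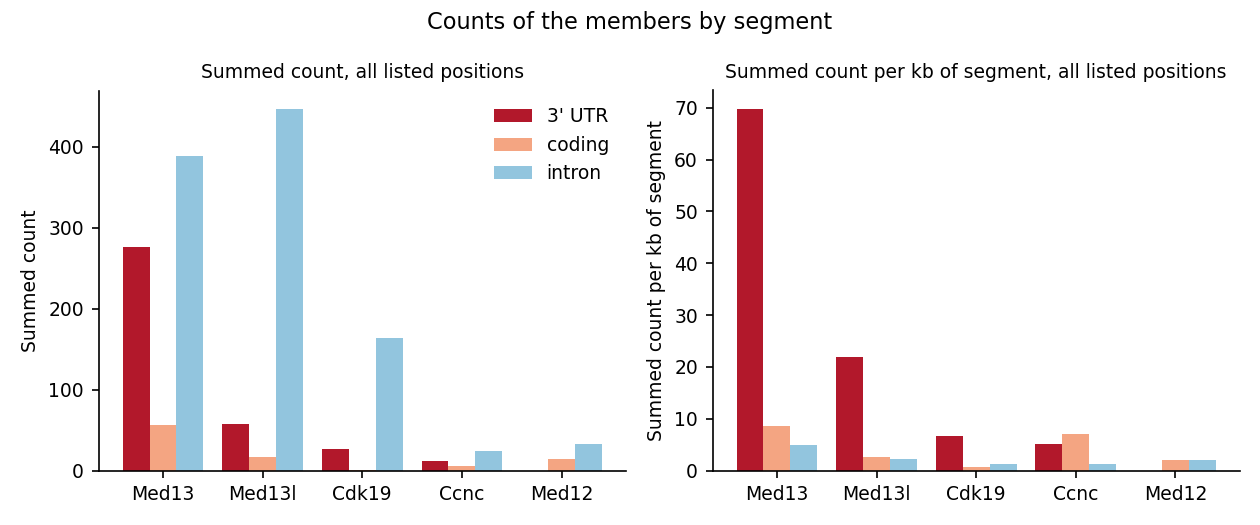
Summed count (left) and summed count per kb of segment (right) of each member over all listed positions. Red bars are the 3′ UTR, orange bars coding sequence and blue bars introns. Med13 reached 69.8 counts per kb in its 3′ UTR, and Med12 had none there.

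Med13 spans chr11:86267033-86357602 on the minus strand, with 30 exons in its principal GENCODE transcript and a 3′ UTR of 3953 nt, chr11:86267033-86270985. Its 4 clusters began 416, 1160, 1376 and 3460 nt after the stop codon. Cluster 3, which is 43 nt long, held 155 of the 224 site counts (69.2%) on 27 sites. Cluster 1 held 38 counts on 15 sites, cluster 2 held 13 on 6 sites and cluster 4 held 18 on 7 sites. All 55 sites lay in the 3′ UTR of the GENCODE annotation and no other annotated gene overlapped a cluster on the same strand. Brip1os lies across all 4 on the opposite strand, and the list keeps strands apart.

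A single base stood out in cluster 3. Position 86269584 had a count of 37, its neighbours 86269583 and 86269585 had 13 each, and 86269581 had 10. No other site of this 3′ UTR exceeded 9, and the median over its sites was 2. The strongest position held 16.5% of the site counts of Med13, against a median of 7.56% over the 52 genes with at least 100 site counts, a minimum set after the values were seen. In the run of cluster 3 above it is base 11, inside the stretch of T that leads into the core.

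**Figure D3:**
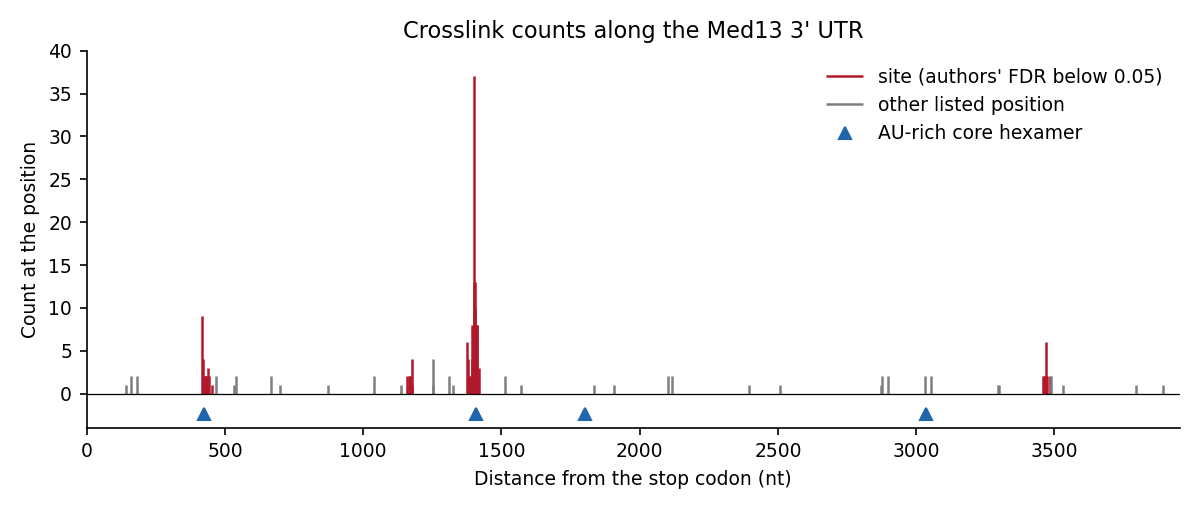
Count at each listed position of the Med13 3′ UTR against distance from the stop codon in nt. Red lines are sites, grey lines other listed positions, and blue triangles mark TATTTA. The highest line, 37 counts, stands beside the triangle at 1406 nt.

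The Med13 3′ UTR holds 4 copies of TATTTA, a core found in 47.9% of the 3′ UTRs of genes with a listed position, and 2 of the copies carried sites. Copies were searched on the transcript strand, and a site counts as near where its 41-nt window holds a whole copy. The copy that begins 423 nt after the stop codon had 13 sites within that window, with 35 counts, and the copy at 1406 nt had 20 sites with 136 counts. The copy at 1799 nt had no listed position in its window, and the copy at 3033 nt had 2 positions with 4 counts and no site. Both occupied copies lie in the nonamer TTATTTATT, which occurs 2 times in this 3′ UTR, and neither of the others does. The sequences of the unoccupied copies, shown to compare what flanks them, follow with the core in capitals.
Med13 copy 3, chr11:86269170-86269199, minus strand: caaaatcagttgTATTTAcaaaactcttaa
Med13 copy 4, chr11:86267936-86267965, minus strand: ctttcgtcttcaTATTTAccttctgaggtc

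Sites near TATTTA made up 33 of 55 in Med13 (95% Wilson interval 46.8 to 71.9%) and 171 of its 224 site counts (76.3%, 70.4 to 81.4). The same shares over the 3′ UTR sites of all protein-coding genes were 28.9% of 16591 sites and 34.6% of counts. Only 3.64% of the bases of the Med13 3′ UTR lie that near a copy, against 2.38% of the bases in 11689 3′ UTRs of genes with a listed position. Among the other 34 listed positions of the Med13 3′ UTR, 2 were near a copy (5.88%). Every Med13 site near TATTTA was also near TTATTTATT, a pattern near 7.87% of the 3′ UTR sites of all genes and present in 7.77% of the 11689 3′ UTRs. The intervals cover counting error only, and neighbouring positions are not independent.

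The 2 occupied copies differed in where the counts fell. In cluster 3, 127 of 155 counts lay upstream of the first base of TATTTA, 21 on the core itself and 7 downstream. The strongest position was 4 nt before the core, and the 10 nt before it held 94 counts. In cluster 1, 17 counts lay upstream, 7 on the core and 14 downstream, with the strongest position, of count 9, 7 nt before the core. The base at the site was a T at 36 of the 55 Med13 sites (65.5%), against 65.8% over all genes.

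**Figure D4:**
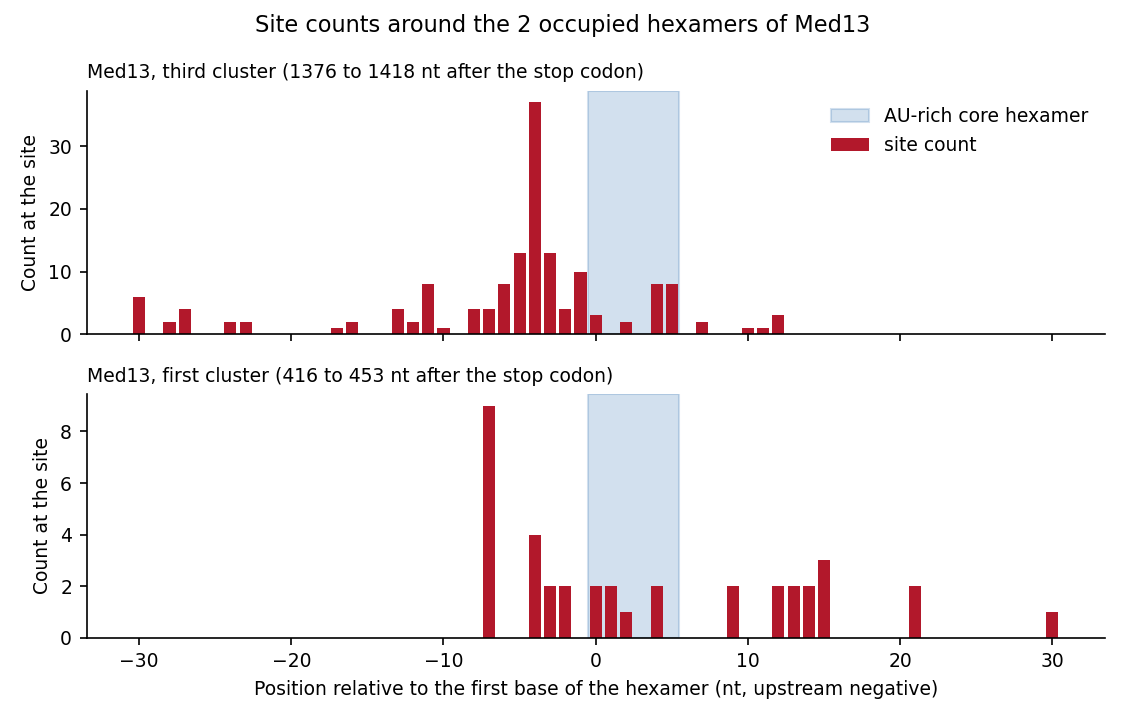
Count at each Med13 site against its position relative to the first base of TATTTA, in nt with upstream negative, in cluster 3 (top) and cluster 1 (bottom). The shaded band is the 6 bases of the core. The top panel peaks at 37 counts 4 nt before the core, and the bottom panel at 9 counts 7 nt before it.

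Clusters 2 and 4 of Med13 had no TATTTA within 20 nt of any site. Their strongest counts were 4, at position 86269810, and 6, at position 86267515. All 6 sites of cluster 2 and 5 of 7 in cluster 4 lie in soft-masked repeat or low-complexity sequence. In cluster 3, 18 of 27 sites do, and in cluster 1, 7 of 15. Whether masking affected the authors' alignment was not tested.

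The genes next to Med13 in 3′ UTR site count served as its nearest likeness, measured by that sum over 1 pooled list. Just above were Lars2 with 353 counts, Edem1 with 260 and Cd3e with 238, and just below were Notch1 with 223, Zfp36l1 with 213 and Cux1 with 200. The share of these counts near TATTTA was 83.0% in Notch1, 43.5% in Cux1, 41.2% in Edem1, 32.9% in Zfp36l1, 18.9% in Cd3e and 0% in Lars2. Med13, with 76.3%, was among 11 of the 52 genes with at least 100 site counts whose share was at least as high. The median share of those 52 genes was 41.2%. In coding counts Med13 ranked 102 and in intron counts 161 among protein-coding genes.

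Med13l, the paralog of Med13, lies on chr5:118560719-118765438, plus strand, with a 3′ UTR of 2605 nt. Its sites lay in the last part of this 3′ UTR, from 1909 to 2576 nt after the stop codon. Cluster 1 had 14 counts on 6 sites, all near TATTTA, with 4 counts at position 118764760, inside the core. Clusters 2 and 3 had 7 counts each and cluster 4 had 5, none near TATTTA. In soft-masked sequence lay 5 of the 6 sites of cluster 1, all sites of clusters 2 and 3 and none of cluster 4. A run of TTTTTT lay within 20 nt of 15 of the 16 Med13l sites, against 22 of 55 in Med13 and 32.0% over all genes. By site counts the shares were 90.9% in Med13l, 62.1% in Med13 and 30.7% over all genes. Part of the Med13 counts thus lay near both TTTTTT and TATTTA, and the patterns cannot be told apart there. The 16 Med13l sites form only 4 clusters, and neighbouring positions are not independent.

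The occupied core of Med13l is not in a nonamer. This 3′ UTR holds 3 copies of TATTTA, and the one that forms TTATTTATT, 559 nt after the stop codon, had 2 listed positions with 4 counts and no site. The copy at 1959 nt had no listed position. The unoccupied nonamer is shown to set it beside the occupied ones of Med13.
Med13l copy 1, chr5:118763380-118763409, plus strand: ctgcattctgttTATTTAtttttcattttg

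Near TATTTA lay 42.4% of the Med13l site counts (95% Wilson interval 27.2 to 59.2) and 76.3% of those of Med13. The interval covers counting error only and treats counts as independent, although all near counts of Med13l lie in its cluster 1. No test was made between the paralogs, since Med13 had been chosen for its counts.

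Cdk19, one of the paired kinases of the module, lies on chr10:40349308-40483818, plus strand. Its 2 clusters stood 310 to 321 and 507 to 524 nt after the stop codon in a 3′ UTR of 4015 nt, and each had 7 counts. No position exceeded a count of 2. All 5 sites of cluster 2 were near TATTTA and none of the 4 in cluster 1. The same 5 sites lay in soft-masked sequence, and those of cluster 1 did not. ATTTA was near all 9 sites, against 36.4% of 3′ UTR sites over all genes. The 9 sites form only 2 clusters, and neighbouring positions are not independent. Of the 3 copies of TATTTA in this 3′ UTR, the one at 518 nt carried sites. The one at 3575 nt had 1 position with 2 counts, and the one at 3061 nt had none.

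Ccnc, the cyclin of the module, lies on chr4:21727726-21750546, plus strand. Its single cluster held 9 counts on 5 adjacent bases, positions 21749688 to 21749692, 1497 nt after the stop codon and in soft-masked sequence. Neither of the 2 copies of TATTTA in its 3′ UTR of 2355 nt had a listed position within reach. Med12, on chrX:101274260-101297465, had no listed position in its short 3′ UTR of 235 nt, which holds 1 copy of TATTTA. Its 14 coding counts lay on 9 positions, none a site.

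**Figure D5:**
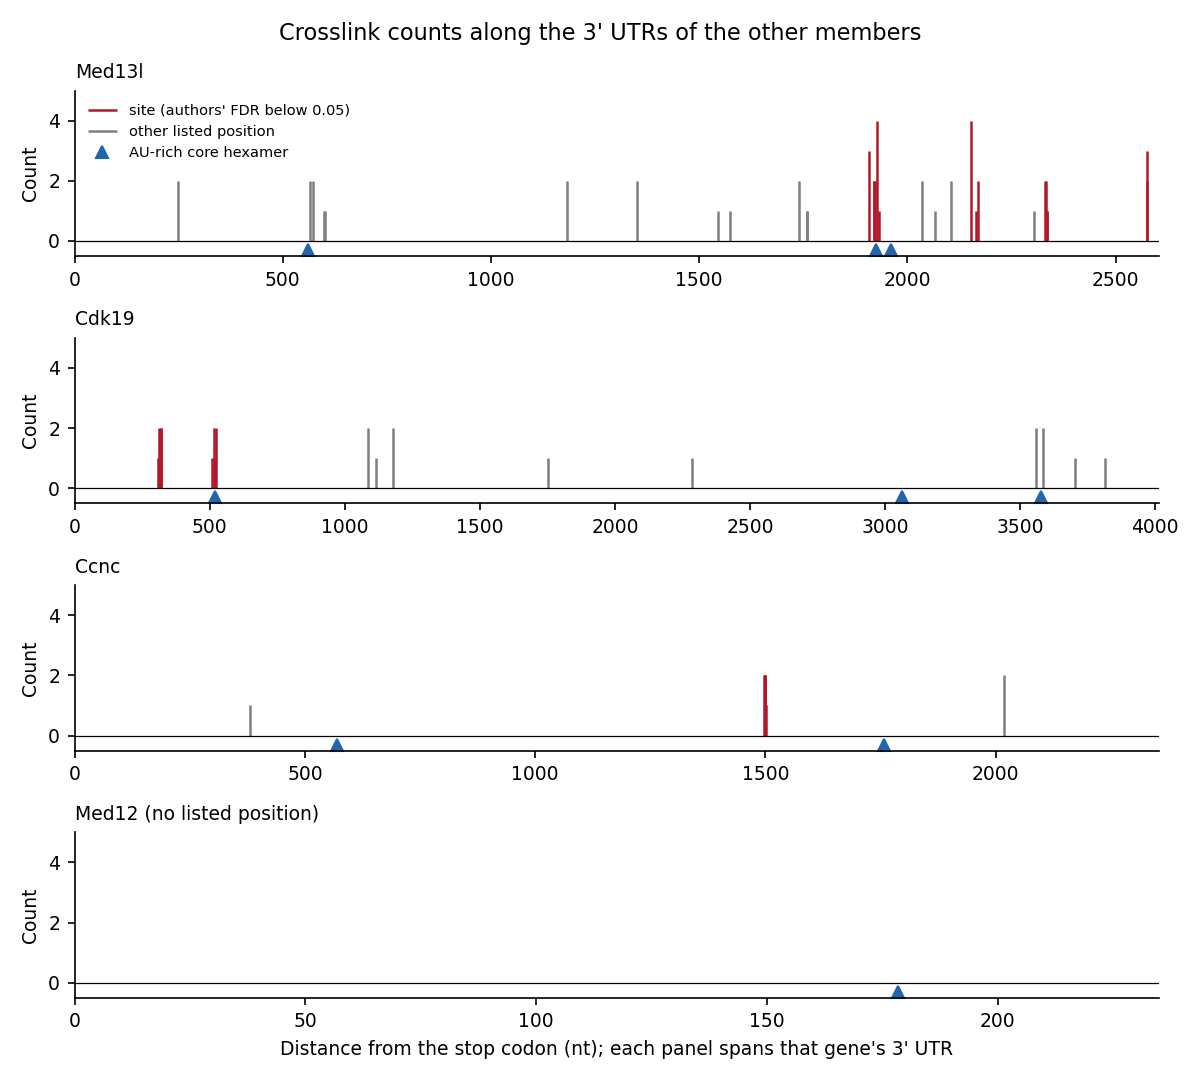
Count at each listed position against distance from the stop codon in nt, for the 3′ UTRs of Med13l, Cdk19, Ccnc and Med12. Red lines are sites, grey lines other listed positions and blue triangles TATTTA. No position exceeds a count of 4, and Med12 has no line.

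Introns held the larger part of the counts in every member, and all 5 had an intron site, against 55.6% of protein-coding genes. This comparison was not matched for intron length, which ran from 16397 nt in Med12 to 195424 nt in Med13l. Med13 had 92 intron sites with 207 counts, Med13l 67 with 120, Cdk19 17 with 33, Ccnc 4 with 7 and Med12 3 with 8. Near TATTTA lay 25.1% of the intron site counts of Med13, 9.17% of those of Med13l, 30.3% of those of Cdk19, and none in Ccnc or Med12. No such share over the intron sites of all genes is given here, so these values are not called high or low. The strongest Med13 intron clusters had 48 counts in intron 10, in a run of T, and 44 counts in intron 9. Near TATTTA lay 5 of 15 sites in the first and 11 of 14 in the second. The strongest position in intron 9, of count 8, was not near it. All 15 sites of the one and 14 of the other lay in soft-masked sequence. No intron position of Med13 exceeded a count of 8, against 37 in its 3′ UTR.

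The strongest Cdk19 intron cluster, with 6 counts in intron 2, lay at overlapping copies of the core and is shown for that reason. Its 3 sites all lay in soft-masked sequence, and none exceeded a count of 2.
Cdk19 intron cluster, chr10:40394709-40394738, plus strand: tttggcttTATTTATTTATTTAttttcttt

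Coding sites were few. Med13 had 7, with 2 counts each, in exons 2, 4 and 16, and Med13l had 1 with 4 counts in exon 2. None was near TATTTA. The other members had no coding site.

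Of 28 further subunits and module paralogs, 27 had a listed position and 6 had a 3′ UTR site (22.2%, against 17.7% of all protein-coding genes), with a median site count of 0 in both. Without the FDR threshold, 19 of the 27 had a 3′ UTR position (70.4%), against 45.9% of all genes, and with sites of at least 3 counts 3 of the 27 did (11.1%), against 8.28% of all genes. The members with a 3′ UTR position or site under these settings were 4 of 5 and 2 of 5. Among listed head subunits 2 of 10 had one, Med18 with 22 counts and Med28 with 3. Among middle subunits 2 of 9 did, Med1, the subunit that contacts nuclear receptors, with 21 counts and Med4 with 1. In the scaffold and tail 2 of 6 did, Med14, the scaffold that joins the modules, with 36 and Med23 with 4. Near TATTTA lay 68.2% of these counts in Med18, 47.6% in Med1, 8.33% in Med14 and 0% in Med4, Med23 and Med28. Neither Med12l nor Cdk8, the module paralogs outside the 5 genes, had a 3′ UTR site.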

How the data were processed

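The data are 1 deposited list of stranded positions. The submitters' processing notes name Bowtie and GRCm38, with no role. Per the file headers, each position carries a count with the strand as its sign, treated here as a score, a further score summing counts within 15 nt, a p-value, not used as a test, and an FDR, treated as a score because it exceeds 1 at 3825 deposited positions. Recomputing the 15-nt sum within gene and segment gave the deposited value at 100% of positions. Listed positions count from 0, as coding exon edges show, and are printed counted from 1. Of all positions, 50.5% have a count of 1, 44.0% of 2 and 1.88% of 3. Segments follow the authors' labels. Lengths, exons and distances use the principal transcript in GENCODE vM21, and sequence is that of RefSeq GRCm38.p6. Python 3.11.15, pandas 2.3.3 and scipy 1.17.1 were used. The window and cluster code was tested on simulated data. Members and lists were chosen with earlier results of these data known. Named genes are the members, up to 3 per list by 3′ UTR site count, and the 3 genes on either side of Med13 in rank. DCKO was to be set beside WT only if values per library were held, and they were not. Primers carried random bases, and no source used here says whether counts are molecules. Alternatives changed the FDR, segment annotation, minimum count, window, motif and gap. The sequences of 2 clusters are not reported here.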

Additional observations from a re-analysis of the deposited data

How the results depend on the processing

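Of 27 alternative values, 19 stayed within 1.5 times the main value, or within the counting interval of the share. These include the summed 3′ UTR site count of Med13 (163 to 276) and its rank (8 to 11) under an authors' FDR below 0.01, all listed positions, GENCODE segments and counts of at least 3. The Med13 share near TATTTA, 76.3%, became 63.4% over all listed positions and 87.7% with counts of at least 3. It became 52.7% with windows of 10 nt on either side and 86.2% with 50 nt. With counts of at least 3, the members with a 3′ UTR site fell to 2, Med13 and Med13l, and other Mediator subunits to 3 of 27, against 8.28% of all protein-coding genes. Over all listed positions 19 of those subunits had a 3′ UTR position, against 45.9% of all genes, and Med13 had 30 clusters, since single positions then count. No paired analysis was possible because the list names no library. Counts of 1 and 2 limit what Cdk19 and Ccnc can show.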

Other observations

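Among other kinases and cyclins that act on RNA polymerase II, with their partner Mnat1, 5 of 9 had a 3′ UTR site. The share over all protein-coding genes was 17.7%, and 3′ UTR lengths were not matched. Ccnt2, a cyclin of the elongation kinase, had 17 sites with 42 counts, 83.3% of them near TATTTA. Cdk12 had 13 sites with 25 counts and Ccnt1 had 7 sites with 14 counts, none near TATTTA. Fbxw7, the ligase subunit known to target MED13 for degradation, had 3 sites with 5 counts, all near TATTTA.

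Cdk8, the paralog of Cdk19, had 4101 intron counts, of which 3146 lay on 136 sites between positions 146261114 and 146261303 of chromosome 5, in intron 2. The highest count there was 228. None of its 212 intron sites was near TATTTA, and 18.4% of them were at a T, against 76.5% of the Cdk19 intron sites. These counts are in none of the counts given for the 5 members. They do enter the intron rank of Med13 and the 3′ UTR share over all protein-coding genes.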
